A study of Homo sapiens with 10 samples.

Results

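In the count table, 10 genes carry the symbol of an imprinted gene named for this account (MEG3, H19, IGF2, PEG3, PEG10, CDKN1C, DLK1, KCNQ1OT1, MEST and GRB10), and their rows were found by symbol, from a list drawn up with earlier results of these data known. They are 10 of 60651 gene rows, all lie outside the 15q11-q13 domain, and 8 of the 10 had enough counts to be tested among 22495 tested genes. RNA of 2 human lines was sequenced: HT29, a colorectal cancer line, and t-hESC, a transformed pluripotent stem cell line. HT29 received VXN at 10 µM or DMSO, and t-hESC received BIX at 1 µM, VXN at 10 µM or DMSO, with 2 libraries in each of the 5 groups. The name BIX commonly stands for a compound that blocks EHMT2 (G9a) and EHMT1 (GLP), the enzymes that deposit H3K9me2; VXN is spelled out in none of the labels. The series as titled concerns drug modulation of H3K9me2. The time of 48 hours stands in a treatment field that reads DMSO for every sample, so the compounds were taken from the titles. The series describes the libraries of a group as biological replicates, without saying how they were separated, so a p-value covers no more than the spread between the libraries at hand.

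An imprinted gene is read mainly from the chromosome inherited from the mother or from the one inherited from the father, and DNA methylation laid down in the germ line marks which one. Many of these genes set fetal and placental growth: as a rule the paternally expressed ones promote it and the maternally expressed ones restrain it. In the mouse, placental silencing of some genes of the KCNQ1OT1 domain also needs G9a, and many cancers and cultured pluripotent lines gain or lose imprints. The counts do not separate the parental copies, so a level here is the sum of both.

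Total gene counts ran from 13137026 to 24492838 per library. Levels are given in CPM, which are counts scaled to the TMM-adjusted total of their library, and a count of 0 allows up to 3 counts, or 0.124 to 0.22 CPM; floors and count ratios below cover counting error only. A gene is called where its adjusted p in edgeR's quasi-likelihood test over all 22495 genes is under 0.05. The SE beside a log2 change is the size of that change divided by the square root of the F value of the test. It is not the standard error of a fitted coefficient, and it can be smaller than the counting error. Of 14 pluripotency markers, the summed level was 263 to 295 CPM in HT29 and 6430 to 7410 CPM in t-hESC, and of 13 colorectal epithelial markers it was 1250 to 1550 CPM in HT29 and 7.45 to 12.1 CPM in t-hESC, so each line carried the markers of its label. Fewer cells of a type and less RNA per cell cannot be told apart in these bulk libraries.

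The promoters of the genes that the results turn on are shown first, as far as the RefSeq table of GRCh38.p14 gives them: 300 bases, 250 before and 50 after a start, for 4 of the 10 genes (GRB10 with 5 starts, MEST with 5, MEG3 with 3 and H19 with 1). For GRB10, the one of these genes with the smallest p under VXN in HT29, both CG-rich starts are printed, and for MEST and MEG3 the start with the most CG. Sequences run 5′ to 3′ on the gene's strand, in lower case with every CG dinucleotide, the site of DNA methylation, in capitals.
GRB10 promoter at the outermost start, chr7:50793404-50793703, minus strand: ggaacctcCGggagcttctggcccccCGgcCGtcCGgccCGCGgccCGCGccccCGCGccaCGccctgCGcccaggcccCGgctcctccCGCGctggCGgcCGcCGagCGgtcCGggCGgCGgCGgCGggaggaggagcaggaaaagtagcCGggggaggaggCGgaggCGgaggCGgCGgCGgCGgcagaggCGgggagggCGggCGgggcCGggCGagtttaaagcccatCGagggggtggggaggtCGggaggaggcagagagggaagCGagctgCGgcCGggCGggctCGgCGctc
GRB10 promoter within the gene, chr7:50792825-50793124, minus strand: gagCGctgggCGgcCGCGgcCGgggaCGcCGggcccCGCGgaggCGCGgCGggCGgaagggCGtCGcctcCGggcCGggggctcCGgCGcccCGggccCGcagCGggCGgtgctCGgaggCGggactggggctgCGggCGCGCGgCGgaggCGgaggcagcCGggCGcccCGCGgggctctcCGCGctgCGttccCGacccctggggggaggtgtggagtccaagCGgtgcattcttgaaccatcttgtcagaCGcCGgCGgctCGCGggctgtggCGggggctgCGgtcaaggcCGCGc
MEST promoter, chr7:130491835-130492134, plus strand: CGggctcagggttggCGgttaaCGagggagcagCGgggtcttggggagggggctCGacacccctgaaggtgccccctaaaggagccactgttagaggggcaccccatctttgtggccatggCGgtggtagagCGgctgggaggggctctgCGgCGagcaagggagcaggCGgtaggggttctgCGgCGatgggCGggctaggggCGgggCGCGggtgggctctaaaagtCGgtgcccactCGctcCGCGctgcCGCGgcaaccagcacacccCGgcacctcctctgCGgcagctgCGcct
MEG3 promoter, chr14:100825858-100826157, plus strand: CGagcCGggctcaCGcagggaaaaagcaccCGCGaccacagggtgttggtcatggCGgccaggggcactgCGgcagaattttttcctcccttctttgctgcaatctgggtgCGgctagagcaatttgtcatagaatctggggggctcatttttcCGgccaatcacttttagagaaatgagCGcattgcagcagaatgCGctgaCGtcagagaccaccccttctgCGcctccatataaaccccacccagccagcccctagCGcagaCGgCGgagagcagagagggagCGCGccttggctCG

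The GRB10 promoter within the gene held 49 CG, a number reached by 1.6% of the 35114 promoters in the table, and the outermost one held 44, a number reached by 4.19%. The other GRB10 starts had 24, 4 and 3. MEST had 13 to 25 CG, MEG3 17 to 19 and H19 6, beside a median of 14 over all promoters. The letters TGCCGC, bound by the imprint-keeping protein ZFP57 when methylated, were looked for on both strands, and 16.7% of all promoters held them. They stood 3 times in the printed MEST promoter and 2, 1 and 1 times at other MEST starts. The stretch with 2 overlaps the printed one and holds 2 of the same matches. The 2 stretches with 1 overlap each other and share a single match. In the outermost GRB10 promoter they stood 1 time, and in each of the 3 MEG3 promoters 1 time. The 3 MEG3 stretches overlap, and that match is the same one in each. The SP1 letters GGGCGG stood 4 times in the outermost GRB10 promoter and 3 times in the inner one. They stood 2 times in the printed MEST promoter, beside 45.0% of all promoters with a match. Another MEST start, whose stretch overlaps the printed one, held the same 2 matches. The AP-1 letters TGANTCA matched 1 MEST promoter, at another start, beside 7.71% of all promoters, and the YY1 letters AANATGGC matched none of the 14, beside 6.58%. Counts are per gene, so which start was in use is not known.

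The lines differed widely in which of these genes they expressed. All 8 tested genes differed between HT29 and t-hESC, under DMSO and under VXN, beside 84.4% and 86.4% of all tested genes called in those comparisons. Under DMSO, IGF2 and KCNQ1OT1 were higher in HT29, where 38.9% of tested genes were called higher, and the other 6 were lower (45.6% called lower). Under VXN, GRB10 joined them as higher in HT29 (40.9% of tested genes called higher) and the other 5 were lower (45.5%). DLK1, PEG10 and MEG3 had enough counts to be tested only through t-hESC. For these genes the choice of tested genes itself favoured a call of lower in HT29. DLK1 had 0 to 5 counts and PEG10 5 to 12 counts per HT29 library, and both were well expressed in t-hESC: the t-hESC to HT29 CPM ratio was 7380 for DLK1 (95% interval 1320 to 292000) and 730 for PEG10 (442 to 1300) under DMSO. H19 and PEG3 were at or near 0 in both lines.

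**Figure D1:**
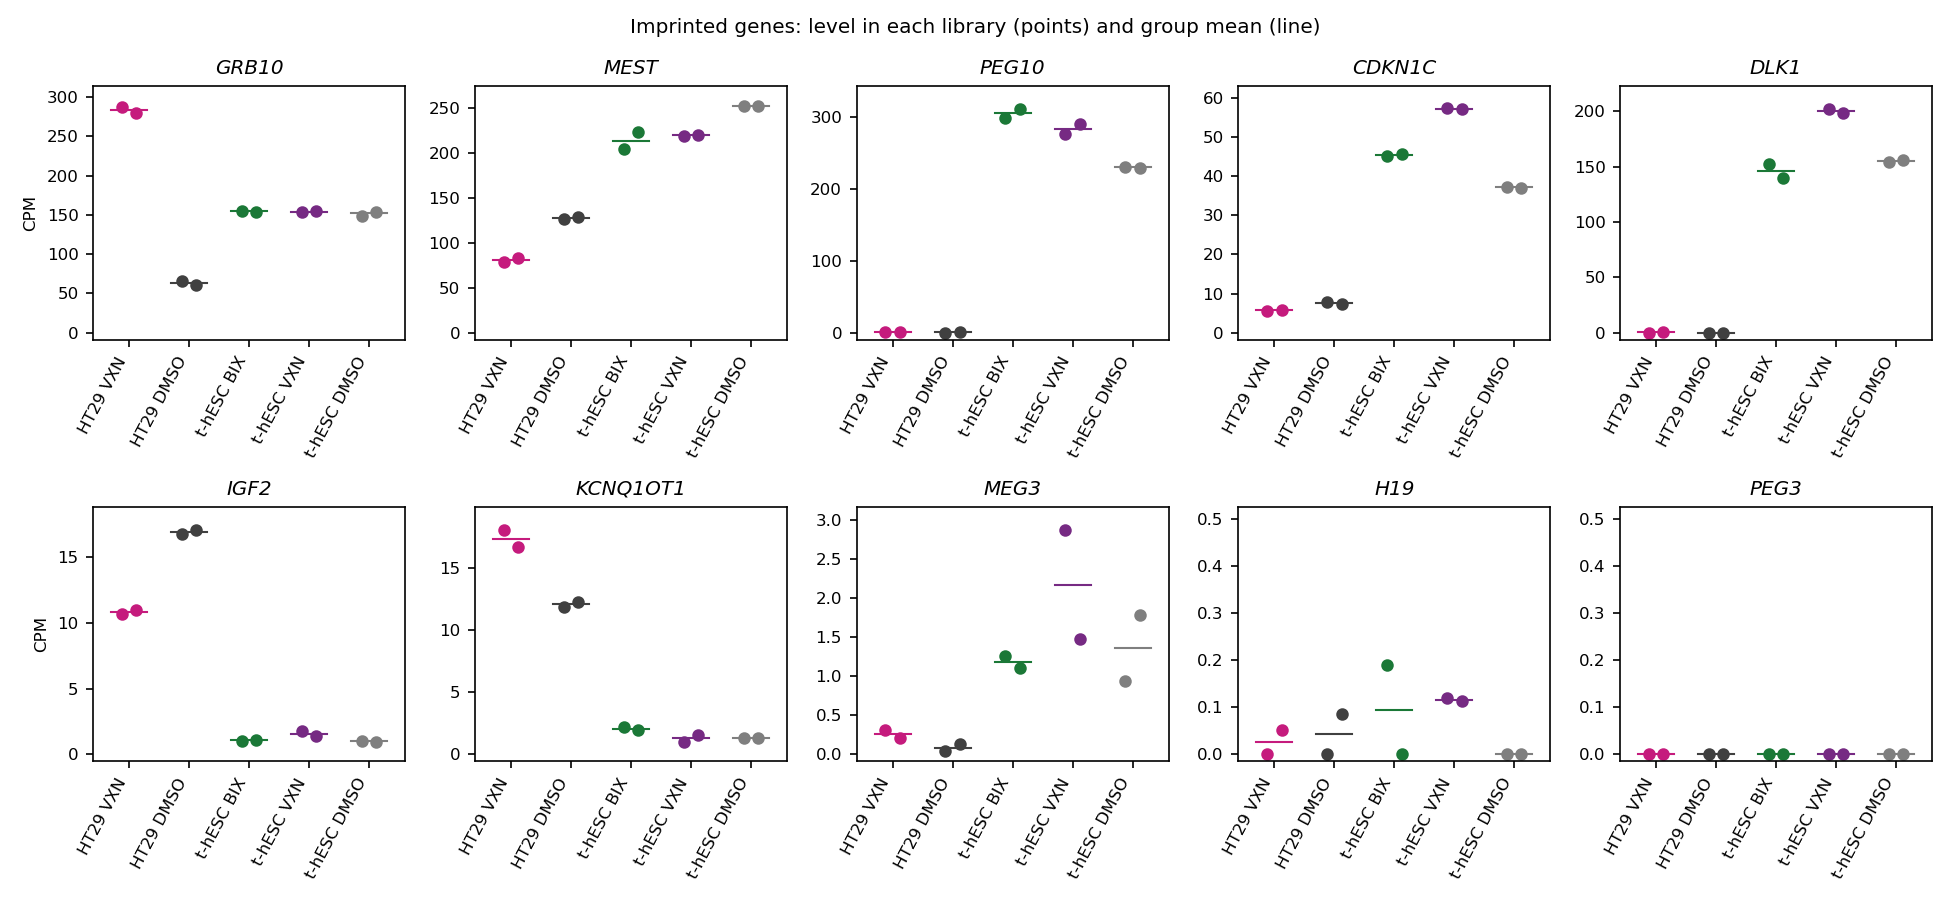
Level of each of the 10 genes in every library (points; vertical axis in CPM, linear, with its own scale per gene) and the group mean (line), for HT29 under VXN and DMSO and t-hESC under BIX, VXN and DMSO. GRB10 stands at 288 and 280 CPM in HT29 under VXN against 66.3 and 61.1 CPM under DMSO, PEG10 and DLK1 are near 0 in HT29, and PEG3 has no count in any library.

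VXN changed 6 of the 8 tested genes in HT29, where 60.0% of all tested genes were called: GRB10, KCNQ1OT1 and DLK1 rose (33.0% of tested genes called higher) and MEST, IGF2 and CDKN1C fell (26.9% called lower). The DLK1 call rests on 3 and 5 counts under VXN against 0 and 1 under DMSO. DLK1, PEG10 and MEG3 had enough counts to be tested only through t-hESC. In t-hESC VXN changed 4 of 8, beside 29.0% of all tested genes: CDKN1C, DLK1 and PEG10 rose (14.5%) and MEST fell (14.6%). BIX in t-hESC changed 3 of 8, beside 23.1%: PEG10 and CDKN1C rose (10.9%) and MEST fell (12.2%). MEST was lower in all 3 comparisons. The BIX and VXN comparisons in t-hESC share their DMSO libraries, and the doses of the compounds differ, so their values stand side by side without a comparison. Markers of cell types also moved. In t-hESC the 14 pluripotency markers summed to 7370 to 7410 CPM under BIX, 6430 to 6440 CPM under VXN and 7280 to 7370 CPM under DMSO; of 13 tested, BIX raised 7 and lowered 2 (median log2 change 0.11) and VXN raised 1 and lowered 7 (-0.13). The 12 fibroblast and stromal markers summed to 873 to 915 CPM under BIX, 980 to 985 CPM under VXN and 723 to 728 CPM under DMSO, with FAP at 0 in each group. Of 8 stromal markers tested, BIX raised 4 and lowered 0 (0.35), while VXN raised 1 and lowered 3 (-0.32), so under VXN the sum and the median lay on opposite sides. The 15 trophoblast markers summed to 81.3 to 92.6 CPM over the t-hESC libraries, with CGA, CGB8, ELF5, ERVW-1 and ERVFRD-1 at 0. In HT29 the 13 colorectal markers summed to 1540 to 1550 CPM under VXN and 1250 to 1270 CPM under DMSO, yet VXN raised 2 and lowered 7 of the 12 tested (-1.05), and 7 of the 13 averaged 1 CPM or more under VXN, against 11 under DMSO. Of 13 pluripotency markers tested, VXN in HT29 raised 5 and lowered 3 (1.2), and of 8 stromal markers it raised 5 and lowered 0 (2.32). These lists were low in HT29: under VXN, 6 of 14 pluripotency and 4 of 12 stromal markers averaged 1 CPM or more. The stromal sum there was 8.97 to 11.3 CPM under VXN and 3.8 to 4.78 CPM under DMSO. The part of these cell types in the changes was not tested.

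**Figure D2:**
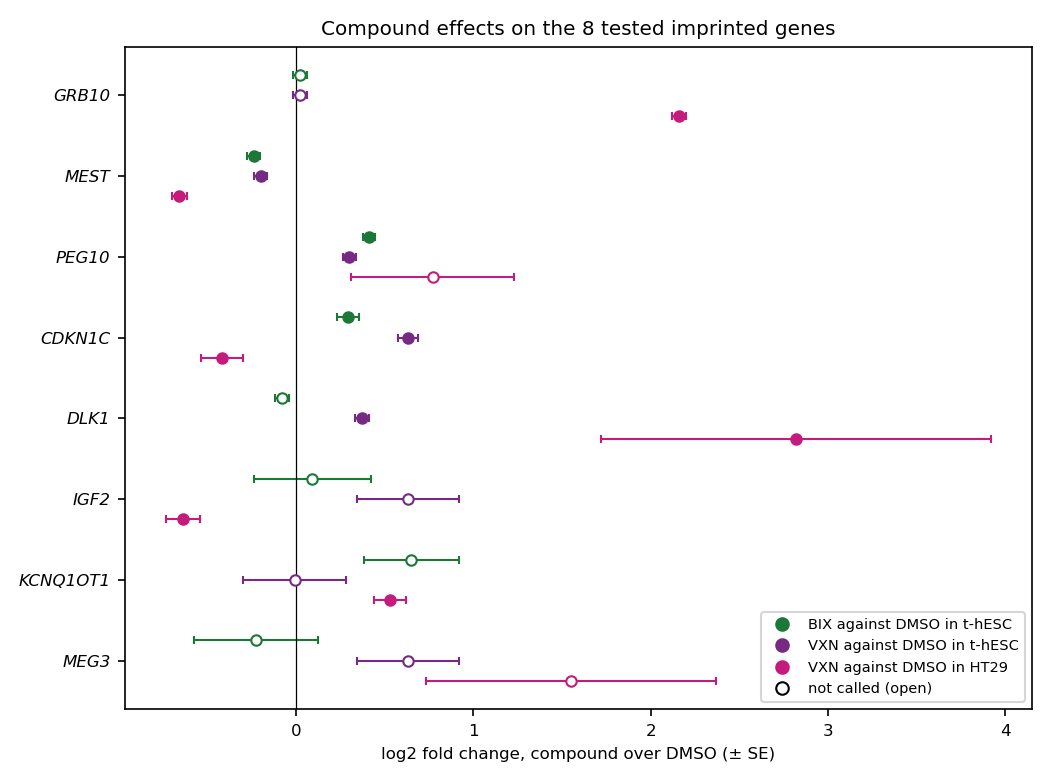
Log2 fold change of compound over DMSO (horizontal axis; bars are ± SE) for the 8 tested genes and 3 comparisons; filled points are called and open ones are not. GRB10 in HT29 lies at 2.16 with both t-hESC points at 0.02, and the 3 MEST points lie below 0.

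In the insulin and IGF axis, GRB10 rose in HT29 and IGF2 fell. GRB10, an adaptor protein that binds the insulin and IGF1 receptors and dampens growth signalling, lies at chromosome 7, 50590068 to 50793453. Its level was 288 and 280 CPM in HT29 under VXN, against 66.3 and 61.1 CPM in HT29 under DMSO. Both VXN libraries of HT29 were far above both DMSO libraries and above every t-hESC library. The rise was 4.46-fold (log2 2.16 ± 0.039 SE, edgeR adjusted p = 5.85e-52).
In t-hESC the level was 155 and 154 CPM under BIX, 154 and 155 CPM under VXN, and 149 and 154 CPM under DMSO, and the groups lay within a few CPM of each other. The log2 change was 0.02 ± 0.039 SE for BIX (edgeR adjusted p = 0.74) and 0.02 ± 0.038 SE for VXN (adjusted p = 0.764). The VXN effect was larger in HT29 than in t-hESC by 2.14 ± 0.055 SE on the log2 scale (edgeR adjusted p = 3.06e-42). With that change GRB10 moved past the level of t-hESC: HT29 stood below t-hESC by a log2 difference of -1.25 ± 0.041 SE under DMSO and above it by 0.88 ± 0.036 SE under VXN (edgeR adjusted p = 9.7e-38 and 7.91e-33).

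IGF2, the paternally expressed fetal growth factor (chromosome 11, 2129117 to 2149566), had 10.7 and 11.0 CPM in HT29 under VXN, against 16.8 and 17.1 CPM in HT29 under DMSO. The 2 groups did not overlap, and the change was -0.64 ± 0.094 SE on the log2 scale (edgeR adjusted p = 1.25e-08). In t-hESC it had 16 and 15 counts under BIX, 29 and 24 under VXN, and 19 and 20 under DMSO. These are low counts: the log2 change was 0.09 ± 0.33 SE for BIX (edgeR adjusted p = 0.917) and 0.63 ± 0.29 SE for VXN (adjusted p = 0.101), and neither was called. The VXN effect in HT29 lay below that in t-hESC, with a difference of -1.28 ± 0.31 SE (edgeR adjusted p = 0.000362). HT29 had more IGF2 than t-hESC, 17.0-fold under DMSO and 7.01-fold under VXN. Its overlapping partners, INS-IGF2 and IGF2-AS, summed to 6 and 10 counts over all 10 libraries. INS-IGF2 spans all 20450 bases of IGF2, and how reads shared by these genes were counted is not known.

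Around these genes stood a list of 25 receptors, binding proteins and signalling partners of the IGF pathway, of which 22 were tested. BIX in t-hESC raised 12, lowered 1 and left 9 without a call (median log2 change 0.20, against 0.0015 over all tested genes), where 10.9% of all tested genes were called higher and 12.2% lower. VXN in t-hESC raised 9, lowered 4 and left 9 (0.15 against 0.0036), beside 14.5% and 14.6% of all tested genes. VXN in HT29 raised 9, lowered 4 and left 9 (0.35 against 0.055), beside 33.0% and 26.9%. Several of the tested genes, among them IRS4, IGFBP3, IGFBP5, IGF2BP1, STC2 and HTRA1, had at most 14 counts in any HT29 library. The HT29 calls and median of this list rest in part on such genes. IGF2R, the receptor that clears IGF2, rose in all 3: its level was 288 and 293 CPM in HT29 under VXN against 122 and 124 CPM under DMSO, a log2 change of 1.24 ± 0.037 SE (edgeR adjusted p = 1e-39).
In t-hESC the IGF2R change was 0.65 ± 0.041 SE under BIX and 0.31 ± 0.041 SE under VXN (edgeR adjusted p = 1.34e-20 and 9.3e-09). IGF1R, the signalling receptor, rose under BIX and under VXN in t-hESC (log2 0.66 ± 0.048 and 0.35 ± 0.049 SE) and was not called in HT29 (-0.08 ± 0.05 SE, edgeR adjusted p = 0.177). The docking proteins of the receptors moved apart in HT29, where IRS1 fell (-0.70 ± 0.04 SE) and IRS2 rose (1.36 ± 0.067 SE), while both rose under each compound in t-hESC. The binding proteins moved in both directions. In HT29 IGFBP2 and IGFBP4 fell (-2.30 ± 0.07 and -0.83 ± 0.037 SE) and IGFBP6 rose (0.41 ± 0.049 SE). In t-hESC under VXN IGFBP4 rose (0.36 ± 0.034 SE) and IGFBP2 fell (-0.10 ± 0.031 SE), and under BIX IGFBP2 rose (0.25 ± 0.031 SE) and IGFBP6 fell (-0.40 ± 0.09 SE). STC1, for a secreted glycoprotein, had the smallest p of the list under VXN in t-hESC, with 5.98 and 5.42 CPM against 21.2 and 24.3 CPM under DMSO (-2.0 ± 0.11 SE). Under BIX, genes of at least 100 kb had a median log2 change of 0.11 (n = 3112) and shorter genes -0.018 (n = 15112), and the part of gene length in the BIX changes was not tested.

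**Figure D3:**
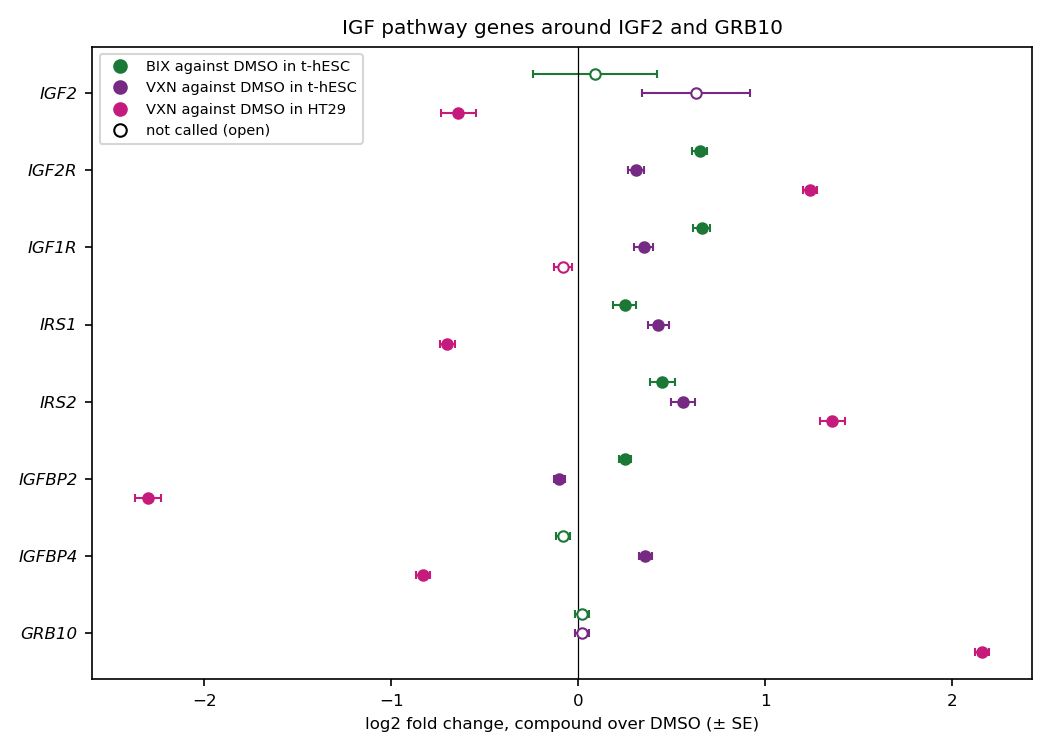
Log2 fold change of compound over DMSO (horizontal axis; bars are ± SE) for IGF2, GRB10 and 6 genes of the IGF pathway in the 3 comparisons; filled points are called and open ones are not. IGF2R and IRS2 lie above 0 in all 3 comparisons, and IGFBP2 reaches -2.30 in HT29 under VXN.

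The chromosome 11p15.5 genes include both a cell cycle brake and the long RNA of its domain. CDKN1C (p57KIP2), a maternally expressed inhibitor of cyclin-dependent kinases at chromosome 11, 2883218 to 2885775, had 45.3 and 45.6 CPM in t-hESC under BIX, 57.5 and 57.1 CPM under VXN, and 37.2 and 37.1 CPM under DMSO. The 3 t-hESC groups did not overlap. It rose by log2 0.29 ± 0.062 SE under BIX (edgeR adjusted p = 0.000169) and by 0.63 ± 0.058 SE under VXN (adjusted p = 4.74e-14).
In HT29 it had 5.6 and 5.83 CPM under VXN, against 7.87 and 7.34 CPM under DMSO, and it fell (log2 -0.42 ± 0.12 SE, edgeR adjusted p = 0.0016). VXN thus had opposite directions in the lines, with a difference of -1.04 ± 0.13 SE (edgeR adjusted p = 3.84e-10). Of 6 other CDK inhibitors, all tested, BIX in t-hESC raised 1 and lowered 0 (median -0.09), VXN in t-hESC raised 2 and lowered 0 (0.07), and VXN in HT29 raised 2 and lowered 4 (-0.39), beside 23.1%, 29.0% and 60.0% of all tested genes called either way. CDKN1A (p21), the p53-induced member, had 98.1 and 96.9 CPM in HT29 under VXN against 9.6 and 10.8 CPM under DMSO. It rose in all 3 comparisons, by 3.25 ± 0.062 SE in HT29, by 0.99 ± 0.046 SE under VXN in t-hESC and by 0.37 ± 0.05 SE under BIX.

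KCNQ1OT1, the paternally expressed RNA that silences its neighbours in cis (chromosome 11, 2608328 to 2699994), lies 183 kb from CDKN1C. It had 18.1 and 16.7 CPM in HT29 under VXN, against 11.9 and 12.3 CPM in HT29 under DMSO. The VXN libraries were both above the DMSO ones, and the rise was 0.53 ± 0.091 SE on the log2 scale (edgeR adjusted p = 8.79e-07). In t-hESC it had 35 and 26 counts under BIX, 17 and 28 under VXN, and 24 and 28 under DMSO, with changes of 0.65 ± 0.27 SE for BIX (edgeR adjusted p = 0.0725) and -0.01 ± 0.29 SE for VXN (adjusted p = 0.994), neither of them called. The difference of the VXN effects was 0.54 ± 0.3 SE (edgeR adjusted p = 0.153).
All 91667 bases of KCNQ1OT1 lie inside KCNQ1, a potassium channel gene on the opposite strand, and the library kit does not mark strand, so reads of the 2 cannot be told apart. KCNQ1 itself went the other way in HT29, with 33.5 and 31.8 CPM under VXN against 36.4 and 37.8 CPM under DMSO (log2 -0.18 ± 0.061 SE, edgeR adjusted p = 0.00722). Between the lines it went the same way as KCNQ1OT1, with a mean of 37.1 CPM in HT29 and 4.92 CPM in t-hESC under DMSO. The part of KCNQ1 reads in the KCNQ1OT1 counts was not tested. Further maternally expressed genes of the domain rose in HT29 beside the fall of CDKN1C. PHLDA2, a restraint on placental growth, had 213 and 219 CPM in HT29 under VXN against 130 and 123 CPM under DMSO (log2 0.77 ± 0.036 SE), and SLC22A18, a transporter, had 101 and 97.2 CPM under VXN against 47.6 and 48.6 CPM under DMSO (1.04 ± 0.049 SE).
In t-hESC under VXN, PHLDA2 rose (1.19 ± 0.14 SE) and SLC22A18 rose (0.54 ± 0.12 SE) together with CDKN1C. H19, the maternally expressed RNA 128 kb from IGF2, had 0 and 1 counts in HT29 under VXN and 0 and 2 under DMSO. In t-hESC it had 3 and 0 counts under BIX, 2 and 2 under VXN, and 0 and 0 under DMSO. It was not tested, and it lies within the span of MRPL23.

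Both genes of the chromosome 14q32 pair were higher in t-hESC than in HT29, and only DLK1 was well expressed in t-hESC. DLK1, a paternally expressed membrane protein related to NOTCH ligands (chromosome 14, 100726892 to 100738224), had 152 and 140 CPM in t-hESC under BIX, 202 and 198 CPM under VXN, and 154 and 156 CPM under DMSO. The VXN libraries stood above the other 4. It rose under VXN (log2 0.37 ± 0.038 SE, edgeR adjusted p = 4.14e-12) and was not called under BIX (-0.08 ± 0.041 SE, adjusted p = 0.162).
In HT29 DLK1 had 3 and 5 counts under VXN, against 0 and 1 counts under DMSO. The CPM ratio was 8.96 with a counting interval of 1.2 to 397, and the fitted change of 2.82 ± 1.1 SE was called (edgeR adjusted p = 0.0191). The call was lost without HT29 DMSO replicate 1 (1.98, edgeR adjusted p = 0.156), without HT29 VXN replicate 2 (2.32, adjusted p = 0.141) and in DESeq2 (3.12, adjusted p = 0.0893). The effects of VXN in the lines were not called different (2.46 ± 1.1 SE, edgeR adjusted p = 0.0591); the difference was called without HT29 DMSO replicate 2 (4.51, adjusted p = 0.0448), and without HT29 DMSO replicate 1 it was 1.61 (adjusted p = 0.312).
There were 82 other genes with at least 100 CPM in t-hESC and under 0.5 CPM in HT29. For 78 of them, the HT29 level as a percent of the t-hESC level was higher under VXN than under DMSO. The median level of these genes in HT29 was 0.108% of the t-hESC level under VXN and 0.0174% under DMSO, and that of DLK1 was 0.0963% and 0.0138%. The part of this shared shift in the DLK1 counts was not tested.

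MEG3, the maternally expressed long RNA that begins 87.9 kb from DLK1, was low everywhere. It had 20 and 15 counts in t-hESC under BIX, 48 and 26 under VXN, and 17 and 38 under DMSO, so the DMSO libraries spanned a wide range and overlapped the VXN ones. Neither BIX (-0.23 ± 0.35 SE, edgeR adjusted p = 0.721) nor VXN (0.63 ± 0.29 SE, adjusted p = 0.105) passed the test, and with 1 library left out the VXN value ran from 0.078 (without t-hESC VXN replicate 1) to 1.19 (without t-hESC DMSO replicate 2). In HT29 it had 7 and 4 counts under VXN, against 1 and 3 under DMSO, a ratio of 3.08 with a counting interval of 0.912 to 13.3. HT29 was lower than t-hESC (log2 -3.95 ± 0.55 SE under DMSO, edgeR adjusted p = 2.5e-09), though MEG3 had enough counts to be tested only through t-hESC. The t-hESC to HT29 CPM ratio under DMSO was 16.6, with a counting interval of 6.14 to 63.2.
DIO3, the thyroid hormone deiodinase gene of the same domain, rose under VXN in t-hESC, with 52 and 62 counts against 25 and 35 under DMSO (log2 1.12 ± 0.23 SE, edgeR adjusted p = 9.8e-05). In a list of 25 NOTCH pathway genes, all tested, BIX in t-hESC raised 11 and lowered 2 (median 0.18), VXN in t-hESC raised 13 and lowered 0 (0.32), and VXN in HT29 raised 10 and lowered 9 (0.07 against 0.055 over all tested genes). The shares of all tested genes called higher and lower were 10.9% and 12.2%, 14.5% and 14.6%, and 33.0% and 26.9% in the same order. NOTCH1, a receptor, rose by 0.72 ± 0.043 SE under VXN and by 0.58 ± 0.045 SE under BIX in t-hESC. The ligand gene JAG1 rose by 2.65 ± 0.048 SE in HT29, by 0.36 ± 0.054 SE under VXN in t-hESC and by 0.51 ± 0.055 SE under BIX.

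PEG10, a paternally expressed gene derived from a retroelement and needed for the placenta in the mouse (chromosome 7, 94656325 to 94669695), had 299 and 311 CPM in t-hESC under BIX, 276 and 290 CPM under VXN, and 230 and 229 CPM under DMSO. All 4 treated libraries lay above both DMSO libraries. It rose by log2 0.41 ± 0.035 SE under BIX, or 1.33-fold (edgeR adjusted p = 5.9e-15), and by 0.30 ± 0.035 SE under VXN (adjusted p = 9.73e-11).
In HT29 it had 12 and 11 counts under VXN, against 5 and 10 under DMSO, and the change was not called (0.77 ± 0.46 SE, edgeR adjusted p = 0.151). Of 15 other retroelement-derived genes of this kind, 13 were tested: BIX in t-hESC raised 0 and lowered 1 (median 0.05), VXN in t-hESC raised 7 and lowered 1 (0.15), and VXN in HT29 raised 3 and lowered 2, beside 23.1%, 29.0% and 60.0% of all tested genes called either way. No median is given for HT29, where 6 of the 13 (RTL1, RTL5, RTL8B, LDOC1, PNMA2 and PNMA8A) had at most 2 counts in any library. ARC rose under VXN in t-hESC, with 39.2 and 40.6 CPM against 11.7 and 15.0 CPM under DMSO (1.57 ± 0.082 SE). RTL8A, one of them, had 57.6 and 58.4 CPM in HT29 under VXN against 26.8 and 27.4 CPM under DMSO (log2 1.10 ± 0.057 SE). SGCE, the paternally expressed neighbour of PEG10, rose under VXN in t-hESC (0.31 ± 0.068 SE, edgeR adjusted p = 0.000272) and was not called under BIX (0.15 ± 0.072 SE, adjusted p = 0.151).

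MEST, a paternally expressed gene for a protein of the alpha/beta hydrolase fold (chromosome 7, 130486175 to 130506465), had 78.3 and 83.5 CPM in HT29 under VXN, against 127 and 129 CPM in HT29 under DMSO. The groups did not overlap, and the change was -0.66 ± 0.042 SE on the log2 scale (edgeR adjusted p = 2.06e-22). In t-hESC it had 205 and 224 CPM under BIX, 219 and 220 CPM under VXN, and 253 and 252 CPM under DMSO. All 4 treated libraries lay below both DMSO libraries, with changes of -0.24 ± 0.037 SE for BIX and -0.20 ± 0.036 SE for VXN (edgeR adjusted p = 3.83e-07 and 6.44e-06). The VXN fall was larger in HT29 than in t-hESC, with a difference of -0.46 ± 0.055 SE (edgeR adjusted p = 9.4e-11).
MEST overlaps MESTIT1, an antisense RNA, over 4803 bases, and the end of COPG2, a coat protein gene, over 228 bases, and without strand their reads cannot be told apart there. MESTIT1 also fell under VXN, in HT29 (-0.66 ± 0.13 SE) and in t-hESC (-0.34 ± 0.096 SE), and was not called under BIX. COPG2 had 33.9 and 37.7 CPM in HT29 under VXN, against 71.7 and 69.0 CPM under DMSO (log2 -0.98 ± 0.051 SE, edgeR adjusted p = 1.84e-26), and in t-hESC it fell under VXN (-0.17 ± 0.039 SE) and was not called under BIX. PEG3, a paternally expressed zinc finger gene on chromosome 19, had 0 counts in all 10 libraries, and so had ZIM2, which overlaps it.

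**Figure D4:**
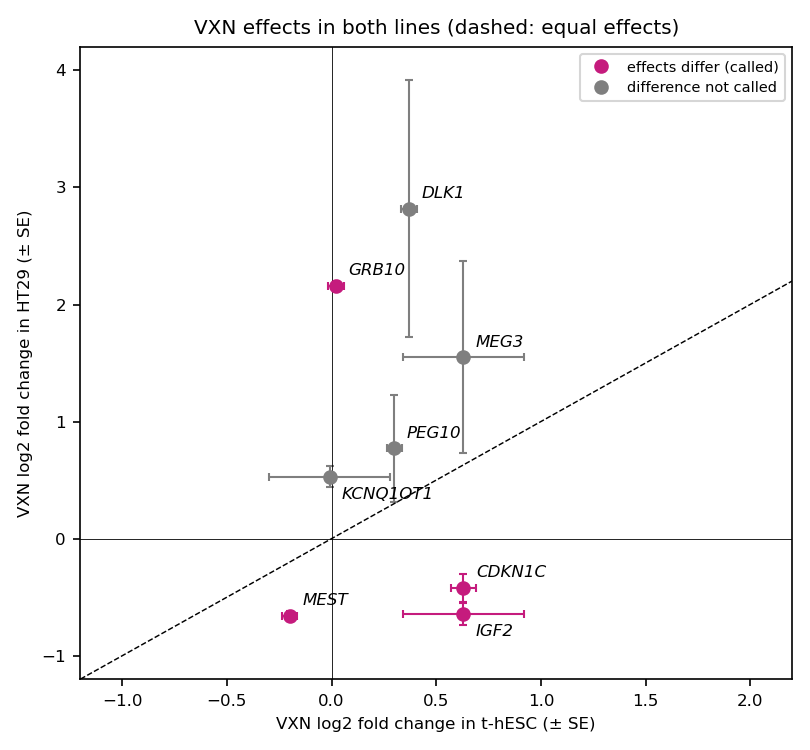
VXN log2 fold change in HT29 (vertical axis) against that in t-hESC (horizontal axis) for the 8 tested genes; bars are ± SE and the dashed line marks equal effects. GRB10 stands at 2.16 in HT29 and 0.02 in t-hESC, CDKN1C and IGF2 lie below 0 in HT29 and above 0 in t-hESC, and the difference is called for those 3 and MEST.

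The VXN effect differed between the lines for 4 of the 8 tested genes, beside 43.2% of all tested genes: GRB10 was higher in HT29 than in t-hESC relative to DMSO (22.9% of tested genes called that way) and CDKN1C, IGF2 and MEST were lower (20.3%).

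Beyond the 10, a list of 39 further imprinted genes had 25 tested members. BIX in t-hESC raised 5 and lowered 0 (median 0.13), VXN in t-hESC raised 9 and lowered 3 (0.13), and VXN in HT29 raised 13 and lowered 5 (0.41, against 0.055 over all tested genes). In the same order, 10.9%, 14.5% and 33.0% of all tested genes were called higher and 12.2%, 14.6% and 26.9% lower. SGCE, 1 of the 13 raised in HT29, had 3 and 4 counts there under VXN against 1 and 0 under DMSO. Other genes of the list also had few counts in HT29. These include PLAGL1 (7 and 7 under VXN against 3 and 2 under DMSO), TFPI2 (5 and 9 against 2 and 1) and ZDBF2 (0 and 1 against 0 and 1). The HT29 calls and median of this list rest in part on such genes. A list of 30 genes that keep or read imprints and histone or DNA methylation had 25 tested, of which BIX in t-hESC raised 4 and lowered 10 (-0.03), VXN in t-hESC raised 4 and lowered 12 (-0.08), and VXN in HT29 raised 3 and lowered 17 (-0.24), beside the same shares of all tested genes. DNMT1, the maintenance DNA methyltransferase, had 57.2 and 53.4 CPM in HT29 under VXN against 141 and 142 CPM under DMSO, a log2 change of -1.35 ± 0.042 SE (edgeR adjusted p = 1.72e-38). In t-hESC it fell under VXN (-0.12 ± 0.035 SE) and was not called under BIX (-0.03 ± 0.035 SE). DNMT3B, a DNA methyltransferase that sets new marks, had 620 and 657 CPM in t-hESC under VXN against 869 and 877 CPM under DMSO (-0.45 ± 0.03 SE).
UHRF1, which brings DNMT1 to replicated DNA, fell in HT29 (log2 -2.52 ± 0.059 SE), under VXN in t-hESC (-0.68 ± 0.053 SE) and under BIX (-0.38 ± 0.053 SE). The remodeller HELLS fell in HT29 (-2.85 ± 0.081 SE), under VXN in t-hESC (-0.39 ± 0.061 SE) and under BIX (-0.24 ± 0.061 SE). CTCF, which insulates IGF2 from enhancers near H19, fell under VXN in HT29 (-0.64 ± 0.04 SE) and in t-hESC (-0.20 ± 0.043 SE). SMCHD1, a chromatin protein that helps to silence imprinted clusters in the mouse, rose in HT29, with 174 and 179 CPM under VXN against 101 and 104 CPM under DMSO (0.78 ± 0.04 SE), and fell under VXN in t-hESC (-0.16 ± 0.052 SE). EHMT2 fell under VXN in HT29 (-0.67 ± 0.044 SE) and in t-hESC (-0.23 ± 0.037 SE), and was not called under BIX (0.04 ± 0.037 SE, edgeR adjusted p = 0.579). EHMT1 fell under VXN in t-hESC (-0.29 ± 0.04 SE) and was not called in HT29 (-0.08 ± 0.042 SE, edgeR adjusted p = 0.0891).

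Genes with the most similar set of 3 compound effects were sought among 14311 genes that averaged 4 CPM or more, by the root mean square difference of the log2 changes. PIP5KL1 was nearest to GRB10, at 0.021, with changes of -0.01 under BIX and 0.02 under VXN in t-hESC and 2.14 in HT29. MRPL27 was nearest to MEST (0.016), and ZBTB3 was the nearest gene with a symbol to CDKN1C (0.034). The measure rests on 3 values per gene, and none is given for IGF2, KCNQ1OT1, PEG10 and DLK1, each of which had a change with an SE of 0.27 or more.

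The authors' deposited table for VXN in HT29 called GRB10 higher (adjusted p = 2.76e-195) and MEST and IGF2 lower (5.89e-19 and 7.57e-07), and it left CDKN1C (0.0551), DLK1 (0.108) and KCNQ1OT1 (0.481) without a call. The authors' deposited table for VXN in t-hESC called CDKN1C (0.01) and DLK1 (0.0136) higher and had MEST at 0.0582 and PEG10 at 0.681. The authors' deposited table for BIX in t-hESC called only MEST among the 10, as lower (0.041).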

How the data were processed

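RNA was sequenced from 10 libraries made with a TruSeq RNA v2 kit, per the labels' protocols, and STAR, DESeq2 1.34.0, FastQC 0.11.9, fastp 0.20.1 and the build GRCh38 stand in the submitters' processing notes, without roles. Which program counted reads, and on which annotation, was not given in the sources used here. The authors deposited raw counts per gene, whole numbers with differing totals, and tables of log2 fold changes with adjusted p-values, used here for calls only. Another 4 columns of the count table matched none of the samples and were not used.

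Counts of all 60651 genes were fitted in edgeR 4.0.16 (R 4.3.3) with TMM factors, a minimum count of 10 in filterByExpr and robust quasi-likelihood F tests of all 10 libraries together, without a replicate block (5 residual and 56.7 prior degrees of freedom). Benjamini-Hochberg adjustment covered all 22495 tested genes, in 6 comparisons. Alternatives were DESeq2 1.42.0, other scaling factors, raw totals for levels, a minimum of 50, no filter, only the groups compared, a replicate block and leaving out each library.

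The members and gene lists were chosen with earlier results of these data known. The genes named were all members, and others drawn for the most part from a set fixed by rule: genes overlapping or adjoining a member, up to 6 called genes of smallest p per list and comparison, the 3 nearest genes by effect, EHMT1 and EHMT2. Not all of that set is named. Some genes outside it, among them IRS4, IGFBP3 and PLAGL1, are named only as examples of low counts. Promoters came from RefSeq (GRCh38.p14).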

Additional observations from a re-analysis of the deposited data

Results flagged for a closer look

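Groups of 2 libraries are too small for a search for single libraries that stand apart. The effect of VXN differed between HT29 and t-hESC by a test of the difference itself for 4 of the 8 tested genes, given as the log2 change in HT29 minus that in t-hESC. GRB10 had a difference of 2.14, CDKN1C of -1.04, IGF2 of -1.28 and MEST of -0.46. For IGF2 the t-hESC side rests on 19 to 29 counts per library.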

How the results depend on the processing

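Of the tests of single genes under the alternatives, 793 kept their direction and call, 6 turned direction, 6 gained a call and 3 lost one, the 3 being DLK1 under VXN in HT29. None of the 6 that turned was called. With each library left out in turn, the BIX change ran from -0.595 to 0.332 for MEG3 (the highest without t-hESC DMSO replicate 2), from -0.000751 to 0.153 for IGF2 (the lowest without the same library) and from -0.00254 to 0.0382 for GRB10 (the lowest without t-hESC DMSO replicate 1). The VXN change in t-hESC ran from -0.00904 to 0.0374 for GRB10 (the lowest without t-hESC DMSO replicate 1) and from -0.373 to 0.26 for KCNQ1OT1 (the highest without t-hESC VXN replicate 1). With upper-quartile factors the VXN change of GRB10 in t-hESC was -0.00324. MEG3 under VXN in t-hESC gained a call without t-hESC DMSO replicate 2 (1.19, edgeR adjusted p = 0.0241) or without t-hESC VXN replicate 2 (1.04, adjusted p = 0.0116), and was 0.0776 (adjusted p = 0.936) without t-hESC VXN replicate 1. DLK1 under BIX gained one without t-hESC BIX replicate 1 (-0.14, adjusted p = 0.0239). The DLK1 difference between the lines gained one at a minimum count of 50 (2.46, adjusted p = 0.0497), without HT29 DMSO replicate 2 (4.51, 0.0448) and without HT29 VXN replicate 1 (2.87, 0.0444), and ran from 1.61 to 4.51 over all alternatives.

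DESeq2 called 2822 genes under BIX in t-hESC against 5199 in edgeR, and 3574 against 6531 under VXN in t-hESC; the cause was not tested. With each library left out in turn, genes called ran from 3872 to 5404 for BIX, 4856 to 6734 for VXN in t-hESC, 12200 to 13786 for VXN in HT29, 8723 to 9897 for the difference, 18303 to 19603 between the lines under DMSO and 18894 to 20041 under VXN. Members called ran from 3 to 4, 4 to 5, 5 to 6, 4 to 5, and stayed at 8 in both line comparisons. With the replicate number as a block, genes called were 5101, 6442, 13426, 9659, 18948 and 19369 in the same order of comparisons, and members called were 3, 4, 6, 4, 8 and 8. Deviations of same-numbered libraries correlated between -0.0318 and 0.0263. Much of the spread within groups is counting error (chi-square per degree of freedom 1.19 to 1.85), which pulls such correlations towards 0. Whether same-numbered libraries shared a batch or a pairing cannot be told from them. Depth limits IGF2, KCNQ1OT1 and MEG3 in t-hESC, PEG10, DLK1 and MEG3 in HT29, and H19 throughout. Levels on raw totals moved by more than the replicate SD in 18 of 50 gene and group pairs.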
